A study of Homo sapiens with 3 samples.

Results

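The genes described are 10 members of the BMP and TGF-β signalling pathways, taken by symbol from the 33538 genes listed in the count matrices of a Caco-2 and HT29 co-culture. They are the ligands BMP2, BMP4, BMP7 and TGFB1, the inhibitory SMADs SMAD6 and SMAD7, and the target genes ID1, ID2, ID3 and TGFBI. All 10 had unique molecular identifiers (UMIs, tags that count captured RNA molecules) in each of the 3 libraries, and all 10 passed the filter on low counts in every comparison. Caco-2 and HT29 are established human colorectal carcinoma lines; Caco-2 cells take on enterocyte features at confluence and HT29 cultures hold some mucus-secreting cells. Both lines were seeded together on Transwell inserts, at 9 parts Caco-2 to 1 part HT29 for every library, and harvested on day 23. Single cells were profiled with the 10x Genomics 3′ assay. The 2 control libraries were untreated, and the 1 LPS-treated library had received 1 ng/ml of lipopolysaccharide from E. coli O111:B4 in the apical chamber on day 22 for 24 hours. Every group therefore holds both lines, and no line was profiled alone in these libraries. The labels do not say whether the control libraries came from separate cultures. The study's methods speak of 2 inserts at seeding and 3 at library construction on day 23, and do not tie an insert to a library. The p-values therefore rest on the spread among these libraries, which may be technical in part. Where groups of the same library were compared, it is the spread of the difference within libraries. No mesenchymal or immune cells were seeded.

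BMP ligands bind serine/threonine kinase receptors that phosphorylate SMAD1, SMAD5 and SMAD9, whereas TGF-β and the activins act through SMAD2 and SMAD3, and both arms share SMAD4. SMAD6 and SMAD7 are induced by the pathway and dampen it, and the ID genes are among its direct targets. In the gut, BMP activity is known to be low around the stem cells at the crypt base and higher towards the villus, where it restrains proliferation.

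The 3 libraries held 24185467 to 33893707 UMIs, and 4633 control 1, 4989 control 2 and 4850 LPS-treated cells were kept, with medians of 5455, 4101 and 3572.5 UMIs per cell. Between 9 and 11 cell barcodes were shared by each pair of libraries. Cells were clustered together without the 10 genes and without 73 further pathway genes. Clusters whose share of UMIs on HT29 markers was high relative to Caco-2 markers were called HT29-like (688, 1030 and 905 cells in control 1, control 2 and LPS-treated), and those where it was low were called Caco-2-like (3848, 3735 and 3899 cells). The Caco-2-like cells include an enteroendocrine-like cluster of 187 cells, with a ratio of HT29 to Caco-2 marker UMIs of 0.036. The study found its secretory-like lineage closer to HT29 cells. The epithelial markers EPCAM, KRT8, KRT18, CDH1, CDX2 and VIL1 summed to between 3245 and 3345 CPM (UMIs of a gene per 1000000 UMIs of the cells). The 8 fibroblast and mesenchyme markers summed to 18.1 to 23.8 CPM, with 0 to 1 of them at 0. Most of that sum was COL1A1 (209 to 241 UMIs per library) and LUM (188 to 247), followed by PDGFRA (30 to 55), whereas DCN and THY1 had at most 1 UMI each. The 4 blood cell markers summed to 7.18 to 8.13 CPM, with 89 to 143 UMIs of CD14, 50 to 80 of CD3E, 8 to 13 of HBB and at most 3 of PTPRC. The part of other cell types in the results was not tested.

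Levels are CPM, computed from the sum of a group's cells within each library and given as mean ± SD over the 3 libraries, 1 of which was LPS-treated. Since the assay counts 3′ ends and the values are not per length, levels were compared between cell groups for 1 gene at a time.

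The promoter sequences shown are those of the members whose 250 bases before the RefSeq start overlapped no annotated exon, with capitals on matches to 2 short SMAD-binding sequences, GGCGCC (its own reverse complement) and CAGAC (or GTCTG on the other strand). They are given 5′ to 3′ on the coding strand of GRCh38.p14. SMAD6 lies at chr15:66701986-66702235, SMAD7 at chr18:48950966-48951215 on the minus strand, ID3 at chr1:23559502-23559751 on the minus strand and TGFBI at chr5:136028738-136028987.
SMAD6: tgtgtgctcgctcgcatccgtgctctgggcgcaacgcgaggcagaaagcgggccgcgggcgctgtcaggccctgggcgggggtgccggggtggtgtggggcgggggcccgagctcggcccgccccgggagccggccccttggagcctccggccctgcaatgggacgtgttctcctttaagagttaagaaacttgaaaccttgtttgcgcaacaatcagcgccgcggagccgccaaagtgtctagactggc
SMAD7: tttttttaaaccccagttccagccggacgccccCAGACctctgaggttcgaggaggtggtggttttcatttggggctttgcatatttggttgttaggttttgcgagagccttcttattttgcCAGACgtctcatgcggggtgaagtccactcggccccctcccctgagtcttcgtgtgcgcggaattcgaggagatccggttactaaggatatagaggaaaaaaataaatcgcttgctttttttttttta
ID3: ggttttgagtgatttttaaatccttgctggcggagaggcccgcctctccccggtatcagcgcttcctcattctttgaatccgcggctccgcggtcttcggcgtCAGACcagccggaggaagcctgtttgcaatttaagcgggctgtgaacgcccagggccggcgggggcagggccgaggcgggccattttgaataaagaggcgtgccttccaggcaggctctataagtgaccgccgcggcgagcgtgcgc
TGFBI: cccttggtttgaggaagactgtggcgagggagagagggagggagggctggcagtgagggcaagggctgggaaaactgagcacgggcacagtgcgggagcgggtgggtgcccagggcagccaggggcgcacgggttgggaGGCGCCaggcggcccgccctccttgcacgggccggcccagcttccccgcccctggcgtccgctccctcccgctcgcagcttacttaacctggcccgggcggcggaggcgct
GGCGCC occurred in 16.4% and CAGAC or GTCTG in 38.0% of 35116 promoter windows of the same length. TGFBI held 1 GGCGCC, ID3 held 1 CAGAC and SMAD7 held 2 at the first of its listed starts, the one shown, and the SMAD6 window held neither. These matches describe the letters of the windows only. SMAD7 had other listed starts without exon overlap, with 1 match at chr18:48949334-48949583 and none at chr18:48942808-48943057. BMP2 and BMP7 had no entry.

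The first question was how the 10 genes were divided between the lines of the co-culture. All 10 differed between HT29-like and Caco-2-like cells, 6 higher in HT29-like cells (BMP4, SMAD6, SMAD7, TGFB1, ID1 and BMP2) and 4 higher in Caco-2-like cells (BMP7, ID3, TGFBI and ID2). The lines differ broadly: of the 14028 genes tested, 72.6% were called, 35.2% higher and 37.5% lower, so calls of this kind were the rule. The median absolute log2 fold change was 1.92 over the 10 genes and 0.74 over all genes tested. The 10 genes were chosen with earlier results of these data known, so the gap between these medians is a description only. The test was edgeR's quasi-likelihood test on counts summed per line and library, with the library as a block and Benjamini-Hochberg adjustment over all genes.

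Among the ligands, BMP4 (ENSG00000125378, chromosome 14, 53949736 to 53958761, minus strand) had the widest gap. It stood at 267, 274 and 285 CPM in the HT29-like cells of control 1, control 2 and LPS-treated, and at 15.5, 18.9 and 19.4 CPM in the Caco-2-like cells. The groups did not overlap, and the log2 difference was 3.90 ± 0.098 (SE, adjusted p = 2.44e-21 by edgeR). The study lists BMP4 among the genes of its undifferentiated HT29 cells, a list drawn from these control libraries, and among HT29 genes of a separate bulk panel. In Caco-2-like cells BMP4 stood at 5.82% to 6.89% of its HT29-like level, beside 2.02% to 2.70% for the summed HT29 markers in the same cells. The lines were set by these markers, so a low marker share was in part fixed by the definition. The part of RNA carried over between droplets in the Caco-2-like BMP4 level was not tested.

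BMP7 (ENSG00000101144, chromosome 20, 57168753 to 57266641, minus strand), a ligand of the same receptor class, was divided the other way. It stood at 7.26, 14.1 and 14.4 CPM in Caco-2-like cells and at 1.13, 2.05 and 1.58 CPM in HT29-like cells, where only 5, 9 and 6 UMIs were counted. The log2 difference was -2.94 ± 0.25 (SE, adjusted p = 8.40e-11 by edgeR). HT29-like cells held 10.9% to 15.6% of the Caco-2-like BMP7 level, beside 8.34% to 13.5% for the summed Caco-2 markers. The part of RNA carried over between droplets in this low level was not tested.

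BMP2 (ENSG00000125845, chromosome 20, 6767686 to 6780246), which signals through the same receptors as BMP4, differed little between lines. It stood at 33.7, 44.7 and 39.6 CPM in HT29-like cells and at 22.5, 26.1 and 34.1 CPM in Caco-2-like cells, so the LPS-treated Caco-2-like value lay above the lowest HT29-like one. The log2 difference was 0.48 ± 0.11 (SE, adjusted p = 0.000599 by edgeR). TGFB1 (ENSG00000105329, chromosome 19, 41301587 to 41353922, minus strand), the TGF-β ligand, stood at 27.8, 22.1 and 22.8 CPM in HT29-like cells and at 12.5, 13.1 and 16.9 CPM in Caco-2-like cells. Its groups did not overlap, and it was higher in HT29-like cells by 0.74 ± 0.14 on the log2 scale (adjusted p = 3.01e-05 by edgeR).

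Both inhibitory SMADs were higher in HT29-like cells. SMAD6 (ENSG00000137834, chromosome 15, 66702236 to 66782849), which acts mainly against BMP signals, stood at 26.4, 24.6 and 32.3 CPM there and at 2.91, 2.69 and 3.38 CPM in Caco-2-like cells. The log2 difference was 3.15 ± 0.15 (SE, adjusted p = 1.01e-15 by edgeR). SMAD7 (ENSG00000101665, chromosome 18, 48919853 to 48950965, minus strand), which blocks both arms, stood at 8.81, 14.6 and 12.6 CPM against 4.14, 3.88 and 4.86 CPM. It was higher in HT29-like cells by 1.42 ± 0.19 on the log2 scale (adjusted p = 3.06e-07 by edgeR). SMAD6 is also in the study's list for undifferentiated HT29 cells, which came from the same libraries.

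The 3 ID genes, which encode partners that hold basic helix-loop-helix factors off DNA, did not share a direction. ID1 (ENSG00000125968, chromosome 20, 31605283 to 31606515) stood at 232, 228 and 208 CPM in HT29-like cells and at 117, 154 and 165 CPM in Caco-2-like cells. It was higher in HT29-like cells by 0.58 ± 0.098 on the log2 scale (adjusted p = 1.11e-05 by edgeR). ID2 (ENSG00000115738, chromosome 2, 8678845 to 8684461) stood at 45.4, 44.2 and 56.7 CPM in HT29-like cells and at 148, 181 and 196 CPM in Caco-2-like cells, a log2 difference of -1.89 ± 0.099 (SE). ID3 (ENSG00000117318, chromosome 1, 23557926 to 23559501, minus strand) was low in both lines, at 1.13, 1.37 and 2.36 CPM against 9.10, 9.37 and 9.78 CPM. Its log2 difference was -2.61 ± 0.26 (SE, adjusted p = 2.81e-09 by edgeR) and rested on 20 UMIs in HT29-like cells. The HT29-like ID3 level was 12.4% to 24.2% of the Caco-2-like one.

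TGFBI (ENSG00000120708, chromosome 5, 136028988 to 136063818), a secreted matrix protein named for its induction by TGF-β, was lower in HT29-like cells although TGFB1 was higher there. It stood at 8.58, 8.21 and 10.2 CPM in HT29-like cells and at 28.8, 33.1 and 39.7 CPM in Caco-2-like cells. The log2 difference was -1.96 ± 0.14 (SE, adjusted p = 3.43e-12 by edgeR). The study names BMP7 and TGFBI among Caco-2 genes of the same bulk panel of cell lines.

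**Figure D1:**
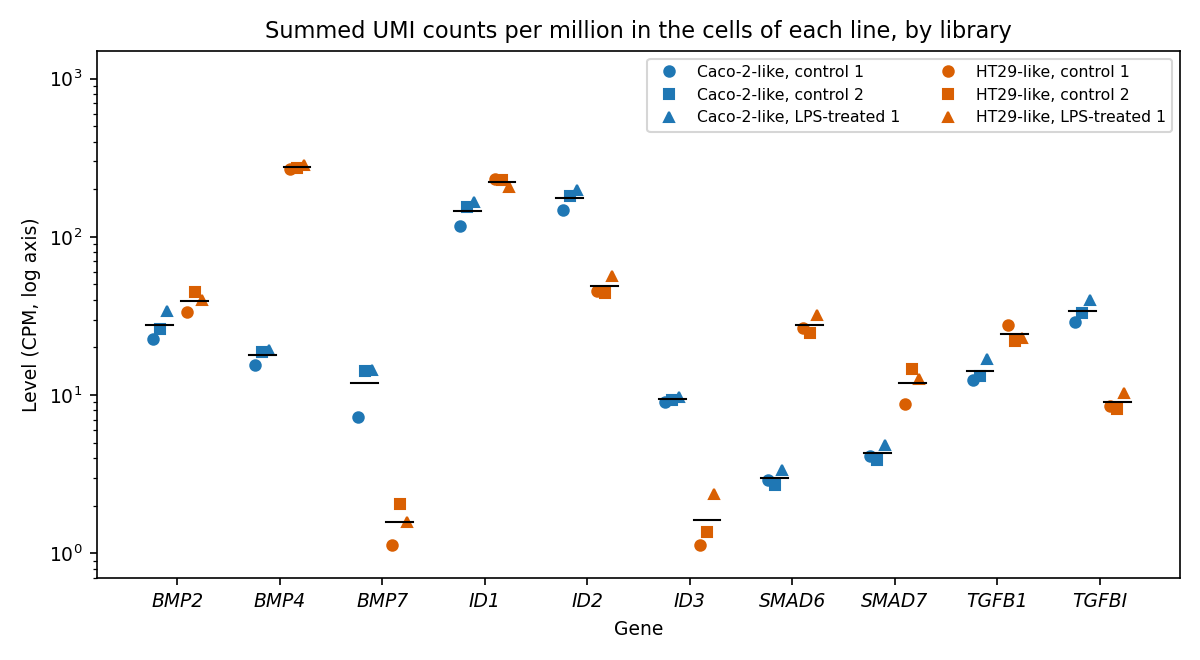
Level of each of the 10 genes in CPM (log axis) in Caco-2-like (blue) and HT29-like (orange) cells, with 1 point per library and a bar at the mean of the 3 libraries. BMP4 and SMAD6 stand apart upwards in HT29-like cells (means of 275 and 27.8 CPM against 17.9 and 3.0 CPM), and BMP7, ID2, ID3 and TGFBI stand apart downwards.

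The other pathway genes were tested in the same fit. Of the 73, 45 passed the filter on low counts, and 21 were higher and 19 lower in HT29-like cells, with a median log2 difference of -0.09. Over all genes tested 35.2% were higher and 37.5% lower. Of the 10 intracellular genes tested, 7 were higher in HT29-like cells and 2 lower, among the 12 receptors 4 were higher and 7 lower, and of the 7 other ligands 1 was higher and 4 lower. The BMP-responsive receptor gene ACVR1 stood at 18.6 ± 1.82 CPM in HT29-like and 2.39 ± 0.46 CPM in Caco-2-like cells (SD, n = 3). SMAD1, the BMP signal transducer, stood at 9.99 ± 1.59 CPM against 1.37 ± 0.60 CPM. ENG, a co-receptor for both ligand classes, was higher by 4.89 ± 0.32 on the log2 scale, at 9.21 ± 0.68 CPM against 0.30 ± 0.09 CPM. PMEPA1, a target and inhibitor of TGF-β signalling, stood at 60.3 ± 4.70 CPM against 3.85 ± 0.69 CPM. In the opposite direction, the BMP target MSX1 stood at 3.52 ± 1.29 CPM in HT29-like cells and 33.0 ± 0.44 CPM in Caco-2-like cells. INHBB, which encodes an activin subunit, stood at 0.65 ± 0.41 CPM against 5.49 ± 2.09 CPM. ACVR1 is in the study's own list for undifferentiated HT29 cells as well.

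The share of cells with a UMI was compared after each cell was thinned to 1500 UMIs, since depth differed between libraries. BMP4 was detected in 35.3%, 30.9% and 31.0% of the HT29-like cells of control 1, control 2 and LPS-treated and in 2.55%, 2.81% and 3.03% of the Caco-2-like cells. Without thinning the shares were 65.6%, 54.0% and 57.0% against 7.74%, 7.82% and 6.77%. ID1 was found in 25.7%, 24.2% and 23.5% of HT29-like and in 14.0%, 17.8% and 19.8% of Caco-2-like thinned cells (36.2% to 56.3% of cells of either line without thinning). ID2 was found in 6.69%, 4.56% and 7.96% against 19.0%, 22.4% and 24.8% (15.2% to 51.3% without thinning). These 3 were the only members with a UMI in at least 10% of the thinned cells of a line in every library. The other 7 were sparse. ID3 was detected in 0 of 688 thinned HT29-like cells of control 1, where a count of 0 at this depth leaves room for a share of 0.436% with an ID3 UMI, and in 0.19% and 0.22% of the other libraries, against 1.22% to 1.62% of Caco-2-like cells. Without thinning 5 of the same 688 cells (0.727%) had an ID3 UMI, as had 0.583% and 0.884% in the other libraries and 3.90% to 5.12% of Caco-2-like cells. In HT29-like cells the variance of thinned BMP4 counts was 1.3 to 1.5 times their mean, and before thinning single cells held up to 16 UMIs. For SMAD6 the ratio was 0.95 to 0.97. Each thinned HT29-like cell with SMAD6 held a single UMI, so its ratio followed from its mean and cannot be set against that of BMP4. Intervals and limits on shares cover counting error only.

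The second question was how the genes differed between clusters of the Caco-2-like cells. TALC (transit-amplifying-like, 1455 cells) was led by DNA replication genes such as MCM10 and GINS2. It was set against ECLC (enterocyte-like, 2092 cells), led by APOA4 and FABP2. The study's classes of these names held larger shares of its cells. Clusters led by GNRH2 (cluster 6) and by ALB and AFP (cluster 7), genes the study describes in its TALC subgroups, stayed unnamed here. Between TALC and ECLC 7 of the 10 genes differed: BMP7, ID1 and TGFBI were higher in TALC, and BMP2, SMAD7, ID2 and BMP4 were higher in ECLC. The remaining ID3, SMAD6 and TGFB1 did not pass the test. Of the 12935 genes tested, 55.7% were called, 25.8% higher and 29.8% lower in TALC. The median absolute log2 fold change was 1.29 over the 10 genes and 0.59 over all genes, with the same limit from the choice of genes. The fit held all named clusters with enough cells, with the library as a block.

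BMP7 stood at 10.1, 22.4 and 26.4 CPM in TALC and at 0.41, 1.69 and 2.27 CPM in ECLC, where 2, 5 and 6 UMIs were counted. The difference was 3.56 ± 0.32 on the log2 scale (SE, adjusted p = 6.69e-15 by edgeR). BMP2 ran the other way, with 12.4, 15.2 and 22.8 CPM in TALC and 40.1, 36.4 and 54.0 CPM in ECLC, a difference of -1.64 ± 0.16 (SE). The groups did not overlap for either ligand. BMP4 was low in both, at 12.2 ± 2.06 CPM in TALC and 16.1 ± 4.22 CPM in ECLC (SD, n = 3), and its ranges overlapped. Its difference of -0.59 ± 0.20 (SE, adjusted p = 0.0101 by edgeR) was lost without control 2 (adjusted p = 0.0564) and turned to 0.14 (adjusted p = 0.410) when clusters were made by log normalization without integration. SMAD7 stood at 3.54, 3.24 and 2.14 CPM in TALC and at 5.12, 5.39 and 11.7 CPM in ECLC. Its difference of -1.42 ± 0.33 (SE, adjusted p = 0.000233 by edgeR) rested in part on the LPS-treated library and was -0.88 (adjusted p = 0.0583) without it.

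The ID genes were divided here too. ID1 stood at 161, 217 and 237 CPM in TALC and at 42.8, 54.3 and 65.7 CPM in ECLC, a log2 difference of 1.69 ± 0.13 (SE, adjusted p = 1.31e-17 by edgeR). ID2 stood at 103, 133 and 138 CPM in TALC and at 201, 242 and 269 CPM in ECLC, a difference of -1.16 ± 0.095 (SE). ID3 stood at 10.1 ± 2.27 and 8.56 ± 2.20 CPM, a difference of 0.01 with a 95% interval of -0.49 to 0.51. TGFBI stood at 39.5, 42.5 and 47.5 CPM in TALC against 10.6, 13.1 and 12.8 CPM in ECLC, a difference of 1.58 ± 0.17 (SE, adjusted p = 7.56e-12 by edgeR). With clusters made by log normalization the differences shrank to 0.90 for ID1, 0.75 for TGFBI, -1.05 for BMP2 and -0.75 for ID2, all still past the threshold. The names then covered other cells: TALC held 2965 cells, led by CDK1 and TOP2A, and ECLC held 5052 cells.

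Of 48 further pathway genes tested, 11 were higher in TALC and 16 lower, beside 25.8% higher and 29.8% lower over all genes tested. Calls were thus about as common as over all genes. FSTL3, which binds activins, stood at 28.6 ± 4.25 CPM in TALC and 128 ± 17.3 CPM in ECLC (SD, n = 3). SMAD3, a TGF-β signal transducer, stood at 14.0 ± 1.79 against 29.9 ± 5.18 CPM. INHBB stood at 7.11 ± 2.50 against 0.50 ± 0.22 CPM, and the ligand gene BMP8B at 3.42 ± 1.49 against 7.20 ± 1.07 CPM. CDKN2B, a cell cycle inhibitor induced by TGF-β, stood at 0.48 ± 0.24 against 2.13 ± 0.48 CPM, and LTBP2 at 1.09 ± 0.65 CPM against 1 UMI in all ECLC.

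Within the HT29-like cells, the goblet-like cluster (GCLC, led by SST, FCGBP and MUC2, with GCG also among its leading genes) was compared with the undifferentiated HT29 cluster (U-HT29, led by LCN2, SNCG and TM4SF4). GCLC held 61, 82 and 79 cells. The study describes SST and GCG as genes of early enteroendocrine-like cells, and markers of that class were also raised in GCLC. The differences are those of the whole cluster, and the part of each cell kind in them was not tested. In GCLC TGFBI was higher, BMP4 and ID1 were lower, and the other 7 genes did not pass the test. Over all genes 14.1% were called, 5.39% higher and 8.67% lower in GCLC. TGFBI stood at 33.8, 30.8 and 40.7 CPM in GCLC and at 6.62, 6.49 and 7.78 CPM in U-HT29, a log2 difference of 2.21 ± 0.37 (SE, adjusted p = 4.41e-06 by edgeR). BMP4 stood at 181, 136 and 142 CPM in GCLC and at 274, 285 and 300 CPM in U-HT29, so GCLC remained above each Caco-2-like cluster while lying below U-HT29 by 1.01 ± 0.15 on the log2 scale. ID1 stood at 135, 133 and 67.8 CPM in GCLC and at 239.5, 239 and 221 CPM in U-HT29, and the difference was -1.16 ± 0.18 (SE, adjusted p = 1.58e-06 by edgeR). For BMP2 the difference was -0.66 ± 0.30 (adjusted p = 0.155 by edgeR), and without control 1 it was -1.20 (adjusted p = 0.0209). BMP7 and ID3 had 2 UMIs each in GCLC, too few to show a difference at this depth. Of 48 further pathway genes tested, 4 were higher and 3 lower in GCLC, close to the share called over all genes (5.39% higher and 8.67% lower). ENG stood at 47.4 ± 9.60 against 6.19 ± 0.88 CPM, and SMAD5 at 145 ± 27.4 against 62.5 ± 7.69 CPM. GDF11 stood at 20.6 ± 15.7 against 6.93 ± 0.84 CPM, but its GCLC value rested on 2, 6 and 11 UMIs and was the lower one in control 1 (6.15 against 7.60 CPM). TGFBR2, the type II TGF-β receptor, stood at 19.1 ± 3.29 against 40.9 ± 8.05 CPM, and GDF15 at 97.2 ± 17.8 against 197 ± 22.1 CPM. SMAD9 rested on 5 UMIs in GCLC.

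**Figure D2:**
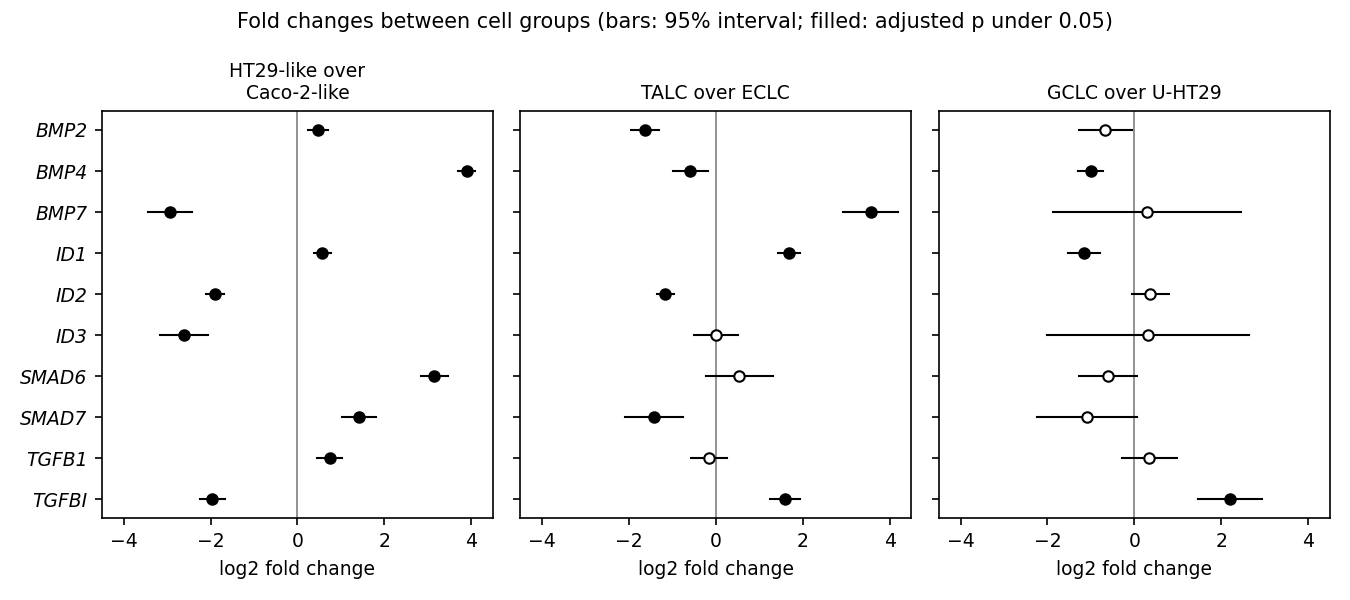
Log2 fold change of each gene (x axis) with its 95% interval in HT29-like over Caco-2-like, TALC over ECLC and GCLC over U-HT29 cells, with filled points past an adjusted p of 0.05 by edgeR. ID1 and ID2 lie on opposite sides of 0 in the first and second panels, and TGFBI is below 0 in the first (-1.96) and above 0 in the others (1.58 and 2.21).

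Across all 14 clusters each gene had its own order, given here without a test. BMP4 was highest in U-HT29 (286 ± 13.3 CPM, SD, n = 3), followed by a cluster of 51 cells led by NEAT1 (cluster 13, 178 ± 119 CPM), GCLC (153 ± 24.7 CPM), a cluster with markers of both lines (cluster 9, 76.4 ± 24.1 CPM), cells expressing fetal genes (FGEC, 72.0 ± 16.6 CPM) and the intestinal stem-like cells (ISCLC, 42.5 ± 8.42 CPM). The 3 library values of U-HT29 lay above those of cluster 13, those of GCLC above those of cluster 9 and those of FGEC above those of ISCLC, whereas cluster 13 overlapped GCLC and cluster 9 overlapped FGEC. The next cluster, of enteroendocrine-like cells (EECLC), stood at 35.2 ± 15.7 CPM. ISCLC was led by PLA2G2A, REG3A and DKK1. The study describes PLA2G2A in its stem-like cells but high DKK1 in a subgroup of its TALC, so the cluster may hold more than stem-like cells. Cluster 9 had the highest median depth of the 14 clusters (7038.5 UMIs per cell), and the part of doublets of both lines in it was not tested. BMP7 was highest in FGEC, a cluster of 21, 44 and 8 cells, at 245, 198 and 159 CPM from 47, 56 and 6 UMIs. The next clusters, ISCLC (25.8 ± 11.9 CPM), EECLC (24.5 ± 14.3 CPM), cluster 2 (led by SOX2 and TTN, 20.6 ± 3.76 CPM) and TALC (19.6 ± 8.48 CPM), overlapped in their library ranges. The study lists BMP7 for FGEC and for TALC, a wider class there than the cluster of that name here, again from the control libraries.

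ID1 was highest in U-HT29 (233 ± 10.4 CPM), TALC (205 ± 39.4 CPM), cluster 2 (187 ± 20.7 CPM) and ISCLC (184 ± 26.7 CPM) and lowest in ECLC (54.3 ± 11.5 CPM). The library ranges of U-HT29 and TALC overlapped, and that of ECLC overlapped those of FGEC, EECLC and cluster 13. ID2 was highest in cluster 8 (led by TAS2R30 and ITGA5, 252 ± 24.0 CPM) and ECLC (237 ± 34.2 CPM), which overlapped, and lowest in U-HT29 (47.3 ± 6.97 CPM). ID3 was highest in ISCLC (16.4 ± 5.45 CPM), which cluster 6 overlapped, and no ID3 UMI was counted in EECLC or cluster 13. TGFBI was highest in ISCLC (57.0 ± 19.95 CPM) and cluster 8 (56.0 ± 11.5 CPM), which overlapped. TALC, EECLC, FGEC and clusters 2 and 6 overlapped ISCLC as well, and the highest single library value was in EECLC (84.1 CPM). Apart from cluster 13 with no UMI, TGFBI was lowest in U-HT29 (6.96 ± 0.71 CPM). SMAD6 was highest in U-HT29 (28.5 ± 4.20 CPM) and GCLC (20.2 ± 4.34 CPM) followed by cluster 13 (13.4 ± 11.8 CPM, from 2 UMIs) and cluster 9 (7.26 ± 1.96 CPM). BMP2 was highest in cluster 8 (55.3 ± 21.5 CPM), and ECLC (43.5 ± 9.29 CPM) and U-HT29 (40.4 ± 6.85 CPM) overlapped it. TGFB1 was highest in GCLC (32.7 ± 6.41 CPM), and SMAD7 in U-HT29 (12.6 ± 3.18 CPM), which cluster 8, ECLC, GCLC and FGEC overlapped.

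**Figure D3:**
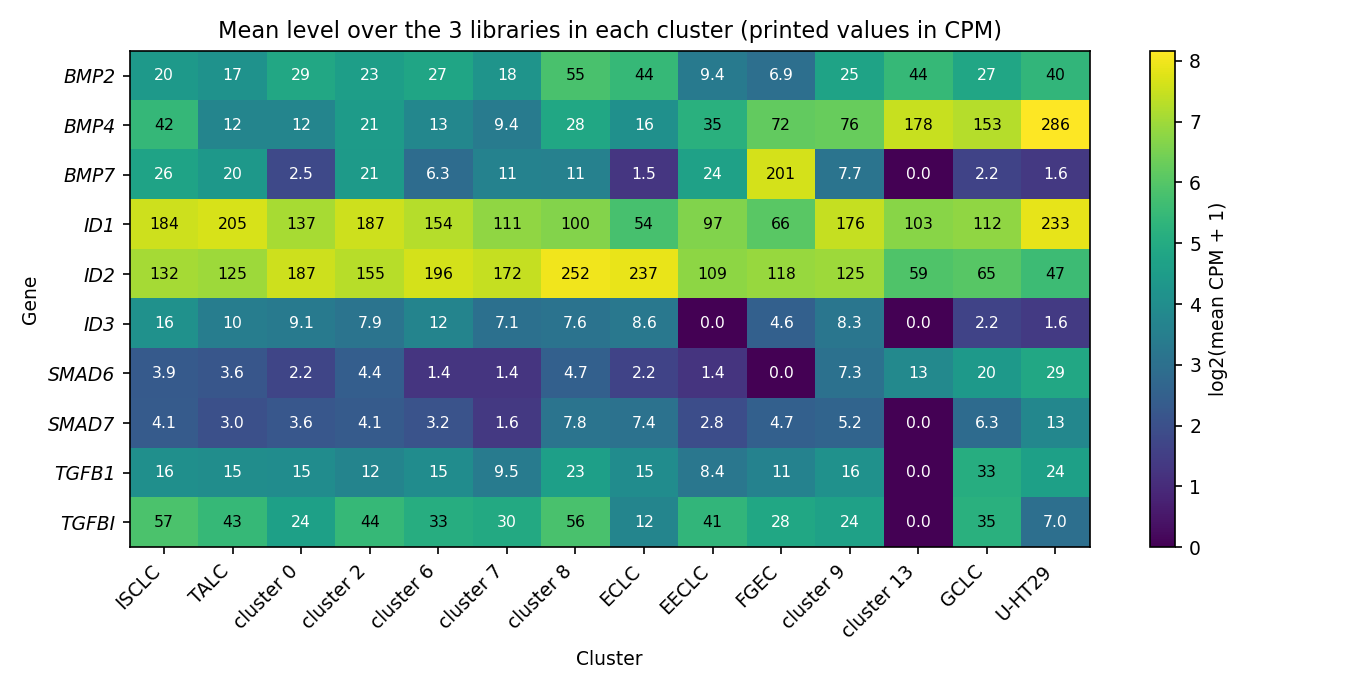
Mean level over the 3 libraries in CPM (printed) of each gene (rows) in each of 14 clusters (columns), coloured by log2(mean CPM + 1). BMP7 peaks in FGEC at 201 CPM, BMP4 in U-HT29 at 286 CPM, and in U-HT29 ID2 is at 47.3 CPM and ID1 at 233 CPM.

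Pearson correlations of log2(CPM + 1) over the 14 clusters, averaged over the 3 libraries, describe which genes had the most similar order. Clusters share libraries and differ in size and depth, so these values are a description. Among the members, SMAD7 and TGFB1 were the most alike (0.89), ID2 and TGFBI reached 0.78, BMP4 and SMAD6 0.66, and BMP2 and BMP7 were the most opposed (-0.82). Cluster 13, of 51 cells, held no UMI of BMP7, ID3, SMAD7, TGFB1 or TGFBI, and its weight in the correlations was not tested. Despite their likeness over clusters, ID2 and TGFBI ran in opposite directions between TALC and ECLC (-1.16 and 1.58 on the log2 scale). Of 11252 genes compared, those most like BMP4 were NAPA (0.96), FAM50A (0.94) and TCIRG1 (0.94), and those most like BMP7 were IRX2 (0.97), ZNF620 (0.96) and AIF1L (0.96). METRNL, ITPR3 and SCARB1 were most like BMP2 (0.95 to 0.97), and C21orf2, SLC12A8 and MTFR1L most like TGFB1 (0.95 each). MAL2, ZADH2 and LYZ were most like SMAD6 (0.93 to 0.95), and SH3RF1, ENTPD2 and ATP6AP1 most like SMAD7 (0.91 to 0.92). ID1 had the weakest likeness, with MGST1 (0.86), C12orf75 (0.85) and REG4 (0.82). EPHX2, HADHA and TCTN3 were most like ID2 (0.98 to 0.99), GSTM4, CDCA3 and FLNC most like ID3 (0.95 to 0.97), and PRCP, NT5DC2 and PRR3 most like TGFBI (0.95 to 0.96).

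Levels of the 6 inhibitory SMAD and target genes were also set side by side in cells with and without a UMI of each of the 4 ligands, within a line and library and at 1500 UMIs per cell. Of 48 ligand and target pairs over both lines, 6 were higher in cells with the ligand in all 3 libraries, 8 were lower in all 3, and the rest were mixed. No pair was tested, the pairs had no common direction, and 3 libraries can agree in sign without any link. The BMP7 pairs in HT29-like cells rested on 1, 3 and 2 cells with the ligand in control 1, control 2 and LPS-treated. For BMP4 and ID1, the ligand and target with the most UMIs in HT29-like cells, ID1 stood at 239, 214 and 275 CPM in cells with a BMP4 UMI and at 217, 201 and 179 CPM in cells without one, a gap that was widest in the LPS-treated library. HT29-like cells include GCLC, where BMP4 and ID1 were both lower than in U-HT29 (153 against 286 CPM and 112 against 233 CPM). The part of this mix in the BMP4 and ID1 gap was not tested. Of the 8 lower pairs, 6 had no target UMI in the cells with the ligand. Without thinning 16 pairs were higher in all 3 libraries, so the count depended on depth.

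The last question was whether LPS changed the genes. None of the 10 passed the test in whole libraries, in Caco-2-like cells or in HT29-like cells, where 0.131% (0.0684% higher and 0.0622% lower), 0.00664% and 0.0531% of genes were called. The comparison set 1 LPS-treated library against 2 controls, with 1 residual degree of freedom in whole libraries and the assumption that the lone library varies as the others do. The fit for the lines held 6 sums from the 3 libraries with 2 residual degrees of freedom. It treated the lines of 1 library as independent, so the shared library was not accounted for. In both fits the p-values and intervals also used degrees of freedom that edgeR borrows across genes. The intervals are therefore narrower than the residual degrees of freedom alone would give, and they do not bound the spread between cultures. In whole libraries fewer cells of a line and less RNA per cell cannot be told apart.

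In whole libraries the fitted log2 changes ran from -0.01 (ID3) to 0.34 (SMAD6). BMP2 stood at 24.0, 29.0 and 35.1 CPM in control 1, control 2 and LPS-treated, a log2 change of 0.33 with a 95% interval of 0.004 to 0.65 and an adjusted p of 0.940 by edgeR. In Caco-2-like cells it stood at 22.5, 26.1 and 34.1 CPM, a change of 0.40 with an interval of 0.003 to 0.80 (adjusted p = 0.993 by edgeR), and in ECLC at 40.1, 36.4 and 54.0 CPM. The LPS-treated value was the highest of the 3 in these groups, but ECLC lies within Caco-2-like cells and these within whole libraries. In Caco-2-like cells the LPS-treated CPM was the highest for every member, so this was not particular to BMP2. ID1, for example, stood there at 117, 154 and 165 CPM and SMAD6 at 2.91, 2.69 and 3.38 CPM. BMP2 had an unadjusted p of 0.0476 in whole libraries and 0.0484 in Caco-2-like cells by edgeR, and was the only member under 0.05 in either, beside 811 of the 16080 and 455 of the 15054 genes tested. In HT29-like cells BMP2 stood at 33.7, 44.7 and 39.6 CPM, so the LPS-treated value lay between the controls, and the change was -0.04 with an interval of -0.51 to 0.44.

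BMP4 was the most tightly bounded in HT29-like cells, with a change of 0.02 and an interval of -0.36 to 0.40. The fitted values of ID1 and ID2 in HT29-like cells were -0.20 (-0.62 to 0.22) and 0.28 (-0.16 to 0.72), and in Caco-2-like cells 0.20 (-0.21 to 0.60) and 0.17 (-0.21 to 0.54). The Caco-2-like values moved with the control left out, from 0.04 without control 1 to 0.38 without control 2 for ID1 and from 0.05 to 0.29 for ID2. BMP7 in HT29-like cells had an interval of -2.09 to 1.96, so a change of several fold was not detectable at this depth. The difference of the LPS change between the lines passed the threshold for no gene, with 332 genes at an unadjusted p under 0.05, and none of the 10 was among them. DESeq2 also called 0 of the 15054 genes for this difference, with 80 at an unadjusted p under 0.05. Of the 55 further pathway genes tested in whole libraries and 49 tested in each line, none passed.

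**Figure D4:**
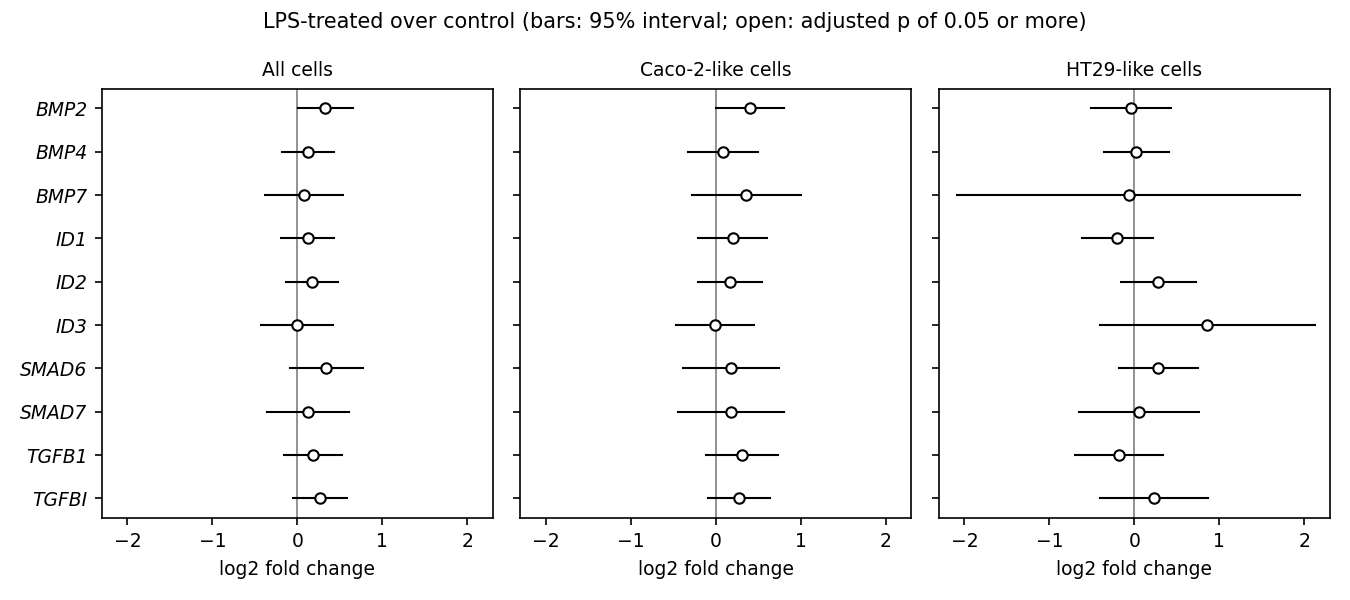
Log2 fold change of each gene in LPS-treated over control (x axis) with its 95% interval computed from the edgeR test, in all cells, Caco-2-like cells and HT29-like cells. All points are open, since none passed an adjusted p of 0.05, and the intervals of BMP7 and ID3 in HT29-like cells are the widest.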

How the data were processed

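Single-cell RNA was measured in 2 control libraries and 1 LPS-treated library. The matrices deposited by the authors hold whole UMI counts per gene and barcode on GRCh38, without normalization and before the study's minimums per cell. They name Cell Ranger 3.1.0, whereas the study lists a later version. Control 1, control 2 and LPS-treated hold 5811, 6495 and 6838 barcodes. Free RNA, which adds low counts of a gene to cells that lack it, was not removed here.

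Cells were kept at the minimums the study gives (2250 UMIs and 770 genes in control 1, 1500 and 700 in control 2 and, for want of its own, in LPS-treated, with at most 20% mitochondrial UMIs). Scrublet's threshold marked 0 doublets, so the highest-scoring 6% of each library were removed. Libraries were normalized with sctransform 0.4.2, integrated in Seurat 5.3.0 on 3000 features without the 10 members and 73 further pathway genes, and clustered (50 components, 15 neighbours, leidenalg 0.10.2, resolution 0.5). Clusters were named here from the study's markers when at least 3 were raised and 1 was among the top 10 genes, so names may differ from the study's. Clusters that did not meet this stayed unnamed and are given by number. Markers of GCLC and EECLC both rose in GCLC. The cuts between lines (a ratio of HT29 to Caco-2 marker UMIs of at least 0.5 or at most 0.05) were chosen after marker values were seen. Clusters 9 and 12 (FGEC) lay between and entered no line comparison.

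UMIs were summed per group and library and tested with edgeR 4.0.16 in R 4.3.3 (TMM, filterByExpr, quasi-likelihood test, adjusted p under 0.05), checked on simulated counts. The library was a block where both groups came from each library. The SE of a log2 fold change was derived from the test, as the absolute change divided by the square root of its F statistic. Alternatives covered scaling, the low-count filter, DESeq2 1.42.0, cell minimums, doublets, the block, clustering, thinning and each library left out. The members, pathway list and tests were chosen with earlier results of these data known. Named genes are the members, up to 6 pathway genes per comparison with the largest fold change past the threshold, and 3 most alike genes per member. Gene positions come from GENCODE on GRCh38.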

Additional observations from a re-analysis of the deposited data

How the results depend on the processing

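All 10 members kept their direction and stayed past the threshold between HT29-like and Caco-2-like cells under every alternative run, including without the replicate block (10 called) and with any library left out (10 called each time). Over all genes 46.7% (no low-count filter) to 73.6% (cells placed by their own markers) were called in these alternatives. TALC against ECLC gave 6 to 7 called members with a library left out, and GCLC against U-HT29 gave 3 to 4. Over all genes 46.1% to 48.0% were then called for TALC against ECLC, in place of 55.7%. For GCLC against U-HT29 the share over all genes was 9.23% to 10.96%, in place of 14.1%. Without the replicate block 7 members were called for TALC against ECLC and 3 for GCLC against U-HT29. Over all genes 9738 (69.4%), 6450 (49.9%) and 1489 (11.5%) were then called in the 3 comparisons, in place of 10191, 7199 and 1818. BMP4 in TALC against ECLC turned from -0.59 to 0.14 with log normalization without integration. That setting also regrouped the cells, with 2965 in TALC and 5052 in ECLC in place of 1455 and 2092. The part of this regrouping in the change was not tested. No member passed the LPS tests under any alternative. The number of genes called in whole libraries under LPS was 21, and it was 47 without the low-count filter, 6 by DESeq2, 7 at the minimums of control 1 and 11 with doublets kept. In Caco-2-like cells it was 1, and 26 without the filter, 2 with cells placed by their own markers and 0 by DESeq2 (79 at an unadjusted p under 0.05), at the minimums of control 1 or with doublets kept (492 and 434 by edgeR at an unadjusted p under 0.05). In HT29-like cells it was 8, and 36 without the filter. For the difference between lines it was 0, and 5 without the filter, 1 at the minimums of control 1 and 2 by own markers. For GCLC against U-HT29, 1194 genes were called without control 2. No paired analysis was possible because the control and LPS-treated groups share fewer than 2 replicate numbers, and leaving out a control left no residual degree of freedom for the LPS tests. With BMP7, the LPS value in Caco-2-like cells ran from -0.04 without control 1 to 0.87 without control 2. Without thinning, 5 members in place of 3 had a UMI in at least 10% of the cells of a line, and 16 ligand and target pairs in place of 6 were higher with the ligand in all libraries. Depth limited ID3, BMP7, SMAD6 and SMAD7 in the small clusters, where a library held few or no UMIs.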
